A study of Mus musculus with 93 samples.

Results

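The genes of lysosomal enzymes and cathepsins comprised 47 members, listed by gene symbol, of 47643 genes counted in the brains of all mice. They were 11 cathepsins, 24 other hydrolases, 4 luminal activators and carriers (*Psap*, *Gm2a*, *Npc2* and *Grn*), 7 membrane proteins (*Lamp1*, *Lamp2*, *Npc1*, *Scarb2*, *Cln3*, *Mcoln1* and *Laptm5*) and the transcription factor *Tfeb*. Every symbol matched a single gene of GRCm38, and all 47 members were among the 23702 genes that passed the filter on low counts (10 or more reads in 10% or more of the mice) and were tested.

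Lysosomes are acidic organelles in which proteins, lipids and sugar chains delivered by endocytosis, phagocytosis and autophagy are broken down. Cathepsins are their proteases, most of them cysteine proteases and *Ctsd* an aspartic protease. Most of the other hydrolases here remove sugars, sulfates or lipid chains, some with help from activator proteins made from *Psap* and *Gm2a*, and inherited loss of many of them causes storage disease in the brain. TFEB, the product of *Tfeb*, binds E-box letters in the promoters of many lysosomal genes. In the brain every cell type has lysosomes, and microglia, the resident phagocytes, are rich in several cathepsins and gather around amyloid plaques.

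RNA was sequenced from the left brain hemisphere of 93 mice aged 8 months. They were of the laboratory strain B6 and of the wild-derived strains CAST, WSB and PWK, either wild type (WT) or *APP/PS1*, the latter carrying transgenes for a mutant amyloid precursor protein and a mutant presenilin that had been backcrossed from B6 into the other strains. WT littermates served as controls. There were 6 mice for each strain, genotype and sex, except 4 female B6.*APP/PS1* and 5 female PWK WT mice. Each library is a bulk sample of all cell types of a hemisphere, so fewer cells of a type and less RNA per cell cannot be told apart.

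Reads counted on genes numbered from 53969802 to 106016200 in a mouse. B6 libraries had identifiers apart from those of the other strains, so B6 and library set cannot be told apart when B6 is compared with another strain. Libraries of CAST, WSB and PWK were divided here into 3 blocks of up to 24 consecutive identifiers, which all 3 strains shared, and whether these were batches of preparation or sequencing is not given in the sources used here. Markers of neurons were present throughout, with 4 genes summing to between 3640 and 4442 CPM (counts scaled to a fixed library total) in every mouse. Counts on *App*, which include the transgene, averaged between 2990 and 3321 CPM in the *APP/PS1* groups and between 1447 and 1588 CPM in the WT groups. Among B6 mice, 2 libraries stood apart. WT male 5 had the highest value of the 12 B6 WT mice for 24.4% of all tested genes and for 26 of 47 members, and *APP/PS1* female 2 had the highest value of 10 for 26.1% of genes and for 30 of 47 members. No other mouse of either group was highest for more than 5 members. Counts of called members in B6 and the B6 responses of the 8 members called in a strain are therefore also given without these mice, and the B6 values of markers and of other genes include them.

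The promoters of 41 members were found among RefSeq windows of GRCm38.p6 that run from 250 bases before to 50 bases after a start site (those of *Aga*, *Asah1*, *Ctsb*, *Ctsh*, *Galns* and *Npc1* were not used here). The letters CACGTG, an E-box, stood in the windows of 14 of 41 members, or 34.1%, against 8.09% of 27025 genes. The longer TCACGTGA, which contains the E-box and is the core of the element that TFEB binds, stood in 5 of 41 members, or 12.2%, against 1.12% of genes. AGGAAGT, letters bound by the myeloid factor PU.1, stood in 5 of 41 members, or 12.2%, against 10.7% of genes. Both strands were searched, and a match is a description of letters and not of binding. Of the 8 members whose transcripts rose in *APP/PS1* mice of at least 1 strain, 1 held an E-box (*Ctsd*) and 2 held AGGAAGT (*Ctss* and *Gusb*), against 13 and 3 of the 33 others. Shown here are 250 bases before and 10 bases after the start site, 5′ to 3′ on the strand of the gene, with motif letters in capitals. *Ctsd* (chr7:142387818-142388077, minus strand) and *Ctss* (chr3:95526536-95526795, plus strand) had the largest responses of the cathepsins, *Ctsz* (chr2:174439030-174439289, minus strand) responded and held none of the motifs, and *Lamp1* (chr8:13158911-13159170, plus strand) held 4 E-boxes and had no called response.
Ctsd: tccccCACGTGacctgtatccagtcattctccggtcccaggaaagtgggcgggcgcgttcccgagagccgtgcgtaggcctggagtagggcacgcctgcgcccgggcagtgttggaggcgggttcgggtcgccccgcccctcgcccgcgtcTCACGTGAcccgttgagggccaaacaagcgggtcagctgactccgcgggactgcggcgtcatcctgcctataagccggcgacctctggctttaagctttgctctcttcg
Ctss: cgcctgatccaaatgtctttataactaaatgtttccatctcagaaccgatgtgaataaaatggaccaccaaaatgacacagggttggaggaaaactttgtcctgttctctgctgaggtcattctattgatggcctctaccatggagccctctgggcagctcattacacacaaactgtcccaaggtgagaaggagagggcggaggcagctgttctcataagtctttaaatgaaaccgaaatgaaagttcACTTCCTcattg
Ctsz: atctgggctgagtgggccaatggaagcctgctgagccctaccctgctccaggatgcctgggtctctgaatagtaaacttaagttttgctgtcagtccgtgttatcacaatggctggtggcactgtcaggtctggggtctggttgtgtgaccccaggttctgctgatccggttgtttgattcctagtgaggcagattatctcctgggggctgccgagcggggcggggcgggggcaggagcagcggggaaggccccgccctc
Lamp1: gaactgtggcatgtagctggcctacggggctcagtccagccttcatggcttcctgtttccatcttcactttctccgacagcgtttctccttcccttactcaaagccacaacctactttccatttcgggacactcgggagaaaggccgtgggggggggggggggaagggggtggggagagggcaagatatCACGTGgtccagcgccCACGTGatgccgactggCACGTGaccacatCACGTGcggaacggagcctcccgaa
The E-boxes of *Ctsd* began 245 and 98 bases before the start site, the second of them within TCACGTGA. In *Ctss* the letters run as ACTTCCT, the complement of AGGAAGT, from 2 bases before the start site. The E-boxes of *Lamp1* lay at 61, 45, 28 and 15 bases before the start site.

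The first comparison asked which of these genes differ between *APP/PS1* and WT mice of the same strain, and whether cathepsins differ from the other lysosomal genes in this. A small group of members rose, led by the cathepsins *Ctsd*, *Ctss* and *Ctsz*, the myeloid lysosomal membrane protein *Laptm5*, the progranulin gene *Grn* and the β-glucuronidase gene *Gusb*. The largest changes were those of *Ctsd* in PWK, 1.41-fold, and of *Ctss* in CAST, 1.397-fold. Most lysosomal hydrolases and the membrane proteins *Lamp1* and *Lamp2* had differences near 0. No member was called lower in any strain or in the mean response.

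In edgeR's quasi-likelihood test with Benjamini-Hochberg adjustment over all 23702 genes and a threshold of 0.05, which gave every adjusted p-value here, 5 of 47 members were called higher in B6, where 0.215% of all genes were. This count rested on few mice, and was 1 without *APP/PS1* female 2, 2 without both mice that stood apart and 0 in a fit of B6 mice alone. In CAST 7 of 47 were called, against 0.544% of genes, in WSB 4 against 0.308%, and in PWK 8 against 1.57%. The members' median log2 differences were 0.03, 0.04, 0.05 and 0.03, against medians of all genes between -0.00454 and 0. At an unadjusted p under 0.05, 2 members were lower in PWK (*Ctsk* and *Gm2a*) and 0 in each other strain, and DESeq2 also called 0 members lower. Without both mice the B6 responses of *Ctsd* and *Ctsz* were 0.24 and 0.23 and passed (adjusted p = 2.27e-06 and 0.00587). Those of *Ctss* (0.21), *Laptm5* (0.19) and *Grn* (0.14) did not (adjusted p = 0.0576, 0.0564 and 0.17), nor did *Gusb* (0.13), *Hexa* (0.12) and *Man2b1* (0.10). The groups overlapped in B6 for all members. In CAST every *APP/PS1* mouse lay above every WT mouse for 2 members (*Ctsd* and *Ctss*), as for 0.127% of all genes, in WSB for 1 (*Ctsd*), against 0.0295%, and in PWK for 4 (*Ctsd*, *Ctss*, *Grn* and *Laptm5*), against 0.245%. The share in B6 was 0.0464% of genes. The study had named *Ctss* and *Ctsz* in a group of co-expressed genes found in these same libraries, so their rise is not independent evidence of that group's direction. The same holds for *Tyrobp*, *Cx3cr1*, *C1qa*, *Csf1r* and *Cd68*, which the study placed in that group. Of these, all but *Cd68* are among the microglial markers used below.

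**Figure D1:**
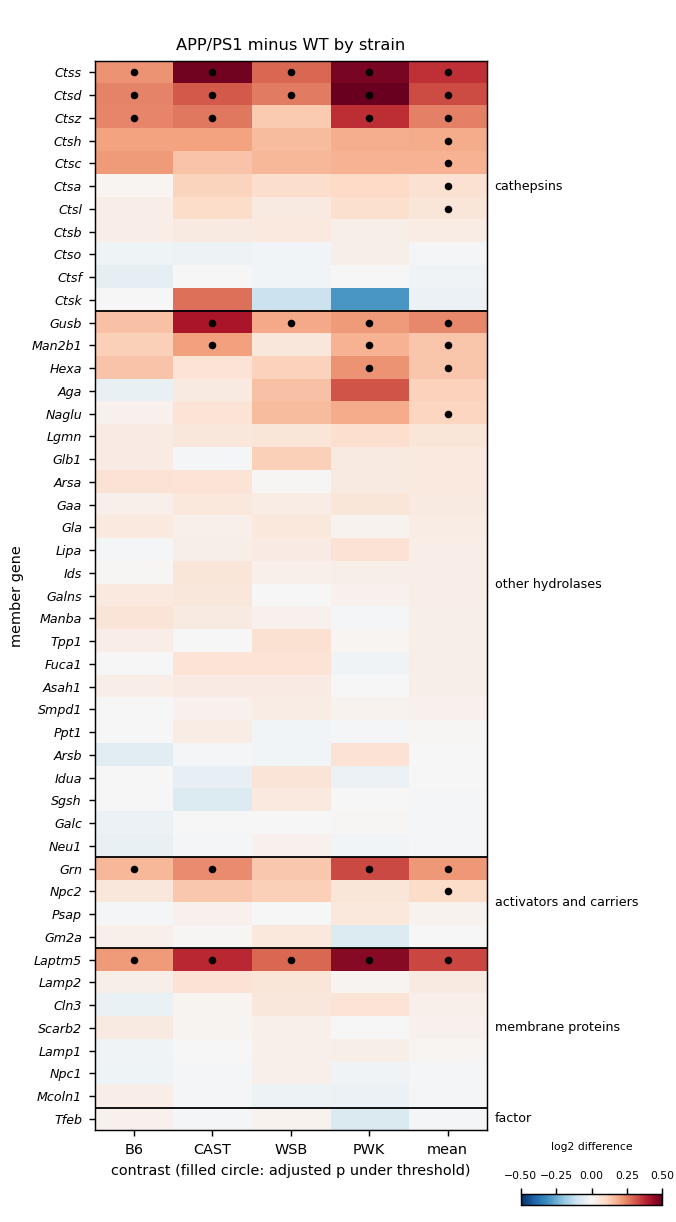
Log2 difference between APP/PS1 and WT mice (color) for each of the 47 members (vertical axis, by class) in B6, CAST, WSB and PWK and in the mean of the 4 strains (horizontal axis). Filled circles mark an adjusted p under 0.05. The circles fall on 8 members in single strains and on 14 in the mean, all of them with higher values in APP/PS1 mice.

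*Ctsd* encodes cathepsin D, the main aspartic protease of lysosomes. In CAST its lowest, median and highest values were 237, 249.6 and 277 CPM in WT mice and 287, 309 and 329.6 CPM in *APP/PS1* mice. In WSB they were 242, 258 and 273.8 CPM against 274, 300.4 and 369.7 CPM, and in PWK 271, 298 and 322 CPM against 354, 417 and 483 CPM. The genotypes were thus separate in these 3 strains, barely so in WSB and most widely in PWK. In B6, WT mice read 267, 295 and 379 CPM and *APP/PS1* mice 317, 339 and 464 CPM, and the ranges overlapped, with WT male 5 and WT females 3 and 5 above the lowest *APP/PS1* mouse. The log2 differences were 0.25 ± 0.04 (SE) for B6, 0.30 ± 0.04 for CAST, 0.26 ± 0.04 for WSB and 0.50 ± 0.04 for PWK, with adjusted p-values of 4.39e-05, 5.79e-09, 1.67e-06 and 5.3e-18. In a fit of B6 mice alone the difference was 0.25 and did not pass (adjusted p = 0.101).

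*Ctss* encodes cathepsin S, a cysteine protease of microglia and other antigen-presenting cells that stays active outside the acidic lysosome. CAST WT mice read 27.8, 29.5 and 32.9 CPM (lowest, median and highest) and CAST.*APP/PS1* mice 34.3, 40.6 and 51.0 CPM. PWK WT mice read 49.6, 52.6 and 59.6 CPM and PWK.*APP/PS1* mice 62.4, 73.8 and 85.2 CPM. In both strains the genotypes were separate, and the median of CAST.*APP/PS1* mice lay below the lowest PWK WT mouse. In WSB the values were 29.4, 34.0 and 43.0 CPM against 35.1, 44.4 and 50.1 CPM, and in B6 46.2, 50.3 and 61.3 CPM against 50.2, 57.8 and 75.4 CPM, with overlap in both. The log2 differences were 0.22 ± 0.05 for B6, 0.48 ± 0.05 for CAST, 0.29 ± 0.05 for WSB and 0.48 ± 0.05 for PWK, with adjusted p-values of 0.0228, 3.52e-12, 9.14e-05 and 5.03e-12. The call in B6 was lost without *APP/PS1* female 1 (0.22, adjusted p = 0.0757) and without *APP/PS1* female 2 (0.18, adjusted p = 0.154).

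*Ctsz* encodes cathepsin Z, a carboxypeptidase. It read 17.7, 19.6 and 24.0 CPM in CAST WT mice and 21.7, 24.2 and 25.4 CPM in CAST.*APP/PS1* mice. PWK WT mice read 25.9, 28.3 and 32.2 CPM and PWK.*APP/PS1* mice 31.9, 36.8 and 42.3 CPM, so that only the top of the WT range met the bottom of the other. B6 mice read 24.3, 27.1 and 35.2 CPM against 29.8, 32.6 and 43.7 CPM, and WSB mice 21, 23.7 and 27.3 CPM against 22.0, 25.8 and 30.7 CPM. The log2 differences were 0.25 ± 0.05 in B6, 0.26 ± 0.05 in CAST and 0.37 ± 0.05 in PWK, with adjusted p-values of 0.0042, 0.000182 and 2.07e-08. In WSB the difference was 0.13 ± 0.05 and did not pass (adjusted p = 0.369). Without *APP/PS1* female 2 that of B6 was 0.19 and no longer passed (adjusted p = 0.0872).

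The remaining 8 cathepsins had smaller mean responses over the 4 strains, and none was called in a single strain. In the mean response over the 4 strains, 14 of 47 members were called higher, against 1.8% of all genes, and 7 of them were cathepsins. Besides *Ctsd* (0.33 ± 0.02), *Ctss* (0.37 ± 0.03) and *Ctsz* (0.25 ± 0.02), these were the aminopeptidase *Ctsh* (0.19 ± 0.04, adjusted p = 0.000424), *Ctsc*, a dipeptidyl peptidase that activates granule proteases (0.17 ± 0.03, adjusted p = 9.87e-05), the serine carboxypeptidase *Ctsa* (0.08 ± 0.02, adjusted p = 0.00285) and the cysteine protease *Ctsl* (0.06 ± 0.02, adjusted p = 0.0245). *Ctsl* was not called without B6.*APP/PS1* female 2 (0.05, adjusted p = 0.0581). *Ctsh* was higher by 0.20, 0.20, 0.16 and 0.18 in B6, CAST, WSB and PWK, each with an SE of 0.07 or 0.08, and *Ctsc* by 0.21, 0.14, 0.17 and 0.18. *Ctsb*, *Ctsf*, *Ctsk* and *Ctso* were not called, with mean responses between -0.03 and 0.04. The abundant cysteine protease *Ctsb* differed by 0.04, with a 95% interval of 0.01 to 0.07. *Ctsk*, which averaged between 2.23 and 3.37 CPM in every group, was 0.28 ± 0.11 higher in CAST.*APP/PS1* mice and -0.29 ± 0.11 in PWK, and neither value passed (adjusted p = 0.425 and 0.221).

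Of the 24 other hydrolases, 3 were called in single strains and 4 in the mean response. *Gusb*, which encodes β-glucuronidase, read 8.15, 9.09 and 10.4 CPM (lowest, median and highest) in CAST WT mice and 10.4, 12.3 and 13.6 CPM in CAST.*APP/PS1* mice, so that the ranges touched at 10.4 CPM. In PWK the values were 11.4, 12.3 and 13.3 CPM against 12.7, 14.4 and 16.8 CPM, in WSB 11.3, 13.9 and 15.5 CPM against 13.3, 15.9 and 17.9 CPM, and in B6 13.8, 15.0 and 16.6 CPM against 13.7, 16.5 and 20.0 CPM. CAST thus had the lowest WT level of this gene and the largest difference, 0.41 ± 0.05 (adjusted p = 4.32e-10), against 0.21 ± 0.05 in PWK (adjusted p = 0.00357), 0.19 ± 0.05 in WSB (adjusted p = 0.0306) and 0.15 ± 0.05 in B6 (adjusted p = 0.435). With the library block as a covariate the call in WSB was lost (0.18, adjusted p = 0.0777).

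*Man2b1*, the lysosomal α-mannosidase gene, read 36.3, 38.8 and 42.2 CPM in CAST WT mice and 38.3, 45.3 and 49.4 CPM in CAST.*APP/PS1* mice. In PWK it read 58.6, 60.2 and 73.4 CPM against 64.2, 70.5 and 76.03 CPM. The differences of 0.21 ± 0.03 in CAST and 0.17 ± 0.03 in PWK passed (adjusted p = 4.98e-06 and 0.000174), and those of 0.12 ± 0.03 in B6 and 0.06 ± 0.03 in WSB did not (adjusted p = 0.19 and 0.71). In B6 its WT mice read 45.8 to 54.3 CPM and its *APP/PS1* mice 48.6 to 61.5 CPM, with medians of 49.6 and 52.8 CPM, and in WSB 39.3 to 43.5 CPM against 37.9 to 50.01 CPM, with medians of 41.3 and 43.0 CPM. *Hexa*, which encodes the α subunit of β-hexosaminidase, was called in the mean response and, among single strains, in PWK alone, by 0.23 ± 0.05 (adjusted p = 0.000537), where WT mice read 32.3, 35.0 and 41.8 CPM and *APP/PS1* mice 39.3, 41.95 and 48.4 CPM. In B6 it read 39.2, 43.7 and 51.3 CPM in WT mice and 42.7, 45.9 and 64.1 CPM in *APP/PS1* mice, the highest value in each group being that of the mouse that stood apart. In CAST it read 31.8, 36.1 and 39.3 CPM against 32.9, 37.9 and 39.35 CPM, and in WSB 34.3, 36.8 and 40.6 CPM against 31.7, 39.3 and 45.2 CPM. The groups overlapped in all 4 strains. Its differences outside PWK were 0.14 in B6, 0.07 in CAST and 0.12 in WSB, and its response was not shown to differ between strains. *Hexa* shares 12.8% of its exon length with the opposite-strand gene *Tmem202*, and whether strand was used in counting is not given in the sources used here. *Naglu*, which acts on heparan sulfate, was called in the mean response only (0.11 ± 0.03, adjusted p = 0.0161). The 20 hydrolases that were not called had mean responses between -0.01 and 0.12, the highest being that of *Aga*, whose interval ran from 0.01 to 0.22.

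*Grn* encodes progranulin, a secreted and lysosomal protein. It read 55.0, 57.2 and 61.5 CPM in PWK WT mice and 64.2, 71.3 and 87.0 CPM in PWK.*APP/PS1* mice, with no overlap. In CAST the values were 40.5, 42.4 and 45.2 CPM against 44.5, 49.9 and 55.5 CPM, in WSB 39.6, 42.9 and 46.2 CPM against 40.8, 46.6 and 57.3 CPM, and in B6 43.0, 47.04 and 54.6 CPM against 48.3, 51.8 and 65.9 CPM. The log2 differences were 0.17 ± 0.04 for B6, 0.23 ± 0.04 for CAST, 0.14 ± 0.04 for WSB and 0.33 ± 0.04 for PWK, with adjusted p-values of 0.0392, 1.18e-05, 0.0942 and 4e-10. In B6 the call was lost without *APP/PS1* female 2 (0.12, adjusted p = 0.266). *Npc2*, which carries cholesterol out of the lysosomal lumen, was called in the mean response (0.09 ± 0.02, adjusted p = 0.00441), and the activator genes *Psap* and *Gm2a* were not (0.02 and 0.00337).

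*Laptm5*, a lysosomal membrane protein of blood-derived and myeloid cells, was the only one of the 7 membrane proteins to be called. It read 15.6, 16.7 and 19.5 CPM in CAST WT mice and 18.4, 21.7 and 25.4 CPM in CAST.*APP/PS1* mice, and in PWK 19.6, 21.3 and 24.6 CPM against 26.8, 29.3 and 34.0 CPM. In WSB it read 16.5, 18.5 and 20.2 CPM against 18.4, 21.9 and 27.2 CPM, and in B6 22.7, 26.0 and 27.5 CPM against 25.3, 29.3 and 34.3 CPM. The genotypes were separate in PWK and overlapped in the other strains. The log2 differences were 0.21 ± 0.04 for B6, 0.38 ± 0.04 for CAST, 0.29 ± 0.04 for WSB and 0.45 ± 0.04 for PWK, with adjusted p-values of 0.00609, 1.44e-10, 1.87e-06 and 5.99e-14. Without B6.*APP/PS1* female 2 that of B6 was 0.18 and did not pass (adjusted p = 0.0582). *Lamp1*, the most abundant membrane protein of the lysosome, had a mean response of 0.01 with an interval of -0.02 to 0.04, and that of *Lamp2* was 0.04 with an interval of 0.01 to 0.08. *Tfeb* differed by -0.01, with an interval of -0.08 to 0.05.

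**Figure D2:**
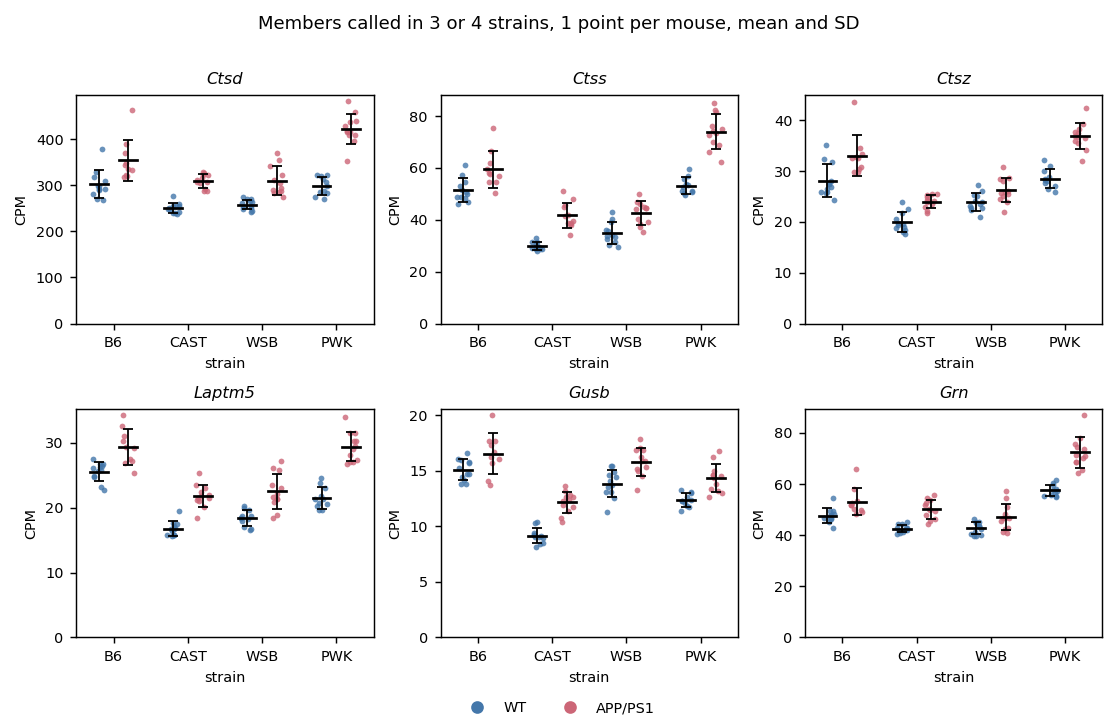
CPM of 6 members in every mouse (vertical axis, from 0) by strain (horizontal axis) and genotype (color), with the group mean and SD as bars. APP/PS1 mice of PWK lie above all WT mice of PWK for Ctsd, Ctss, Laptm5 and Grn, and the B6 groups overlap in each panel.

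Set side by side in the mean response, 7 of 11 cathepsins, 4 of 24 other hydrolases, 2 of 4 luminal proteins, 1 of 7 membrane proteins and 0 of 1 transcription factors were called higher. The class medians were 0.08 for cathepsins, 0.03 for other hydrolases, 0.05 for luminal and 0.02 for membrane proteins, and the median over all genes was -0.00421. The 33 members that were not called had responses between -0.03 and 0.12, and their 95% intervals lay between -0.14 and 0.22. Within the library blocks, which divide the mice that gave the calls, the 7 members called in CAST, the 4 in WSB and the 8 in PWK had positive differences in each of the 3 blocks, of which 1 held a single CAST.*APP/PS1* mouse.

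Markers of microglia moved with these members. Of 10 microglial markers, 3 were called higher for B6, 5 for CAST, 4 for WSB and 6 for PWK, and none lower. *Sall1*, a transcription factor of microglia, went the other way in B6, by -0.21 ± 0.09, which did not pass (unadjusted p = 0.0287, adjusted p = 0.818). *Tyrobp*, an adaptor of microglial receptors, rose by 0.53, 1.05, 0.56 and 0.77 in B6, CAST, WSB and PWK, and *Cx3cr1*, the fractalkine receptor, by 0.17, 0.31, 0.22 and 0.34. The summed level of the list ranged from 219 to 269.5 CPM in B6 WT and 247 to 316 CPM in B6.*APP/PS1* mice, from 191 to 223 and 222 to 269.8 CPM in CAST, from 191 to 226 and 208 to 255 CPM in WSB, and from 211 to 245 and 242 to 298 CPM in PWK. Among markers of perivascular macrophages and monocytes, 0 of 5 were called in any strain, and the defining monocyte markers *Ccr2* and *Ly6c2* averaged at most 0.304 CPM in every group. *Gfap*, the astrocyte filament gene, was the only one of 5 astrocyte markers called, by 0.51, 0.36, 0.48 and 0.36. No marker of oligodendrocytes, neurons or endothelium was called in a single strain. The part of these cells in the members' responses was not tested.

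A further comparison asked whether the response differs between strains. It was tested as a strain by genotype interaction, which was called for 1 of 47 members, *Ctsd* (adjusted p = 0.0141), against 0.473% of all genes. The *Ctsd* response of WSB minus that of PWK was -0.24 ± 0.05 on the log2 scale (adjusted p = 0.0147), and that of PWK was 0.25 ± 0.06 larger than that of B6 (adjusted p = 0.0191). The response of CAST differed from that of PWK by -0.19 ± 0.05 and did not pass (adjusted p = 0.147), and the other 3 pairs of strains differed by 0.06 or less. The difference between PWK and B6 was lost without B6.*APP/PS1* female 3 (0.23, adjusted p = 0.0803) or female 4 (0.22, adjusted p = 0.0785). Counts on *App*, which include the transgene, also had a smaller response in WSB than in PWK, by -0.18 (adjusted p = 9.38e-05). Their response in PWK exceeded that in B6 by 0.09, which did not pass (adjusted p = 0.437). The medians of the microglial markers had the same sign as the *Ctsd* differences in these contrasts. Of 10, 4 had a smaller response in WSB than in PWK and 0 a larger one at an unadjusted p under 0.05, with a median difference of -0.13, and 5 had a larger response in PWK than in B6 and 0 a smaller one, with a median of 0.17. None passed the adjusted threshold in edgeR. Oligodendrocyte markers went the other way in WSB minus PWK, where 4 of 5 had a larger response at an unadjusted p under 0.05 (median 0.19). None of these passed after adjustment either. In CAST minus PWK, 1 microglial marker had a larger and 2 a smaller response at that unadjusted threshold, with a median of -0.04. The part of *App* and of these markers in the *Ctsd* differences was not tested.

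For *Ctss* the interaction had an adjusted p of 0.0713, and its response in CAST exceeded that of B6 by 0.26, with an interval of 0.12 to 0.40 that did not pass (adjusted p = 0.284). The interaction, and not this single difference, passed without B6.*APP/PS1* female 2 (adjusted p = 0.015) and without both B6 mice that stood apart (adjusted p = 0.0264). *Gusb* had an adjusted p of 0.126, *Laptm5* of 0.134, *Grn* of 0.225 and *Ctsz* of 0.329. The intervals of the WSB minus PWK difference, not adjusted for the number of genes, ran from -0.37 to -0.11 for *Ctsz* and from -0.30 to -0.09 for *Grn*. Neither difference passed across all genes.

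Next, WT mice of CAST, WSB and PWK were compared, strains whose libraries shared blocks. Lysosomal genes differed between these brains about as often as all genes did, and like them not in a common direction. Over the 3 strains 38 of 47 members were called, against 74.1% of all genes, a share near that background. CAST was higher than PWK for 16 members and lower for 18, where 27.8% and 27.1% of all genes were higher and lower. WSB was higher than PWK for 15 and lower for 15 (27.5% and 27.0% of genes), and CAST was higher than WSB for 13 and lower for 19 (27.1% and 27.2%). The classes were not alike in WSB minus PWK, where 0 of 11 cathepsins were higher and 6 lower, with a median of -0.09, and 12 of 24 other hydrolases were higher and 5 lower, with a median of 0.10. In CAST minus PWK 4 cathepsins were higher and 5 lower, and 11 other hydrolases higher and 9 lower. In CAST minus WSB the counts were 5 and 3 for cathepsins and 6 and 10 for other hydrolases. The difference between classes was not tested. Of the 47 members, 19 were called in all 3 pairs, 18 in 2, 3 in 1 and 7 in none (*Ctsb*, *Ctsk*, *Hexa*, *Ids*, *Lamp2*, *Manba* and *Tfeb*, whose largest differences were between 0.04 and 0.10). Within the blocks, whose mice also gave the calls, all members called in a pair kept their direction in each of the 3, except *Fuca1* between CAST and WSB (0.10, 0.12 and -0.03).

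**Figure D3:**
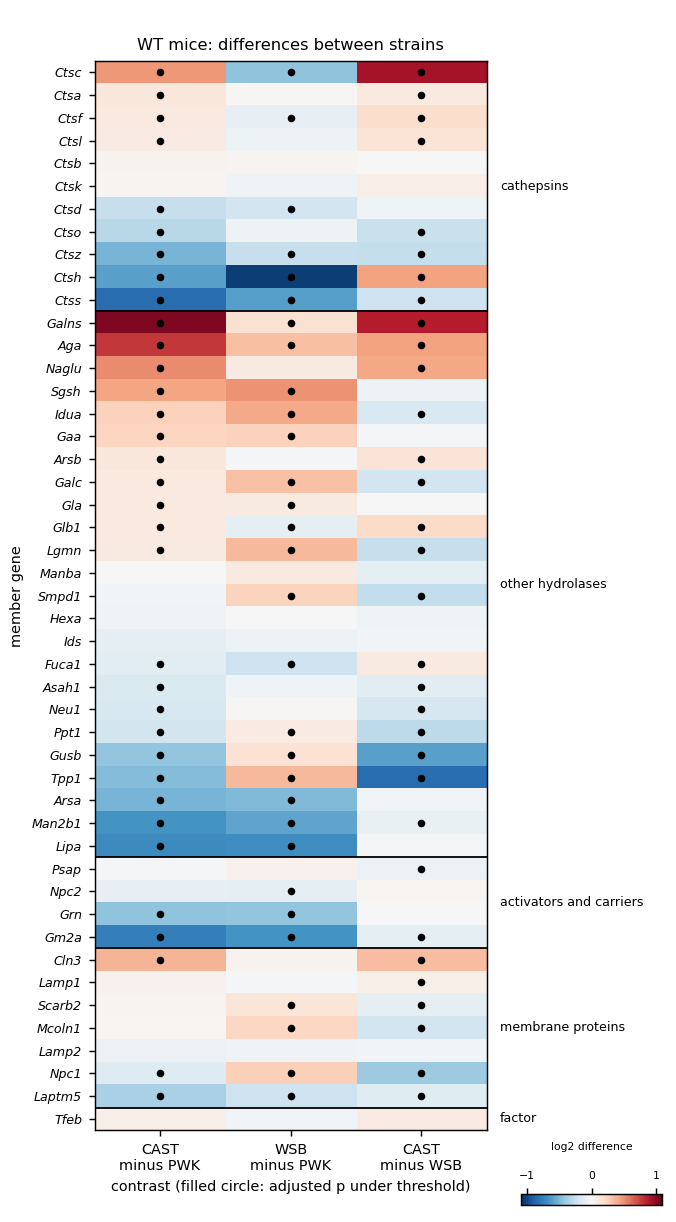
Log2 differences between WT mice (color) for CAST minus PWK, WSB minus PWK and CAST minus WSB (horizontal axis) for the 47 members (vertical axis, by class). Filled circles mark an adjusted p under 0.05. Positive and negative differences are mixed over the members, from -1.04 for Ctsh (WSB minus PWK) to 1.03 for Galns (CAST minus PWK).

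The widest ranges were those of *Ctsh* and *Galns*. *Ctsh* read 10.0, 12.1 and 15 CPM (lowest, median and highest) in PWK, 5.87, 8.34 and 9.79 CPM in CAST and 4.82, 6.04 and 7.32 CPM in WSB, and the PWK mice lay above all mice of both. The WSB minus PWK difference was -1.04 ± 0.08 (adjusted p = 1.01e-21). *Galns*, a sulfatase that acts on keratan sulfate, read 14.5, 15.6 and 18.6 CPM in CAST, 7.66, 8.74 and 10.0 CPM in WSB and 6.495, 7.71 and 10.0 CPM in PWK. CAST mice were separate from both, and exceeded PWK by 1.03 ± 0.06 (adjusted p = 7.37e-27), whereas WSB and PWK overlapped and differed by 0.17 ± 0.06. *Ctsc* was also highest in CAST, with a mean of 11.4 ± 0.715 CPM (SD, n = 12) against 8.14 ± 0.877 CPM in PWK (n = 11) and 6.02 ± 0.724 CPM in WSB (n = 12), and the CAST minus WSB difference was 0.92 ± 0.06 (adjusted p = 6.55e-23).

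*Tpp1*, a tripeptidyl peptidase whose loss causes a neuronal storage disease, averaged 88.4 ± 2.44 CPM in WSB, 68.9 ± 3.16 CPM in PWK and 49.4 ± 1.4 CPM in CAST, the 3 ranges were separate, and CAST was below WSB by -0.84 ± 0.02 (adjusted p = 1.15e-51). *Aga*, which cleaves the sugar-asparagine bond of glycoproteins, averaged 4.48 ± 0.588 CPM in CAST, 3.29 ± 0.475 CPM in WSB and 2.62 ± 0.804 CPM in PWK, with overlapping ranges and a CAST minus PWK difference of 0.78 ± 0.11 (adjusted p = 1.65e-09). *Gusb* was lowest in CAST (9.16 ± 0.677 CPM), against 12.4 ± 0.599 CPM in PWK and 13.9 ± 1.23 CPM in WSB, and the CAST minus WSB difference was -0.60 ± 0.05 (adjusted p = 8.58e-20).

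The order of strain means PWK over B6, WSB and CAST was found for 7 members, *Ctss*, *Gm2a*, *Lipa*, *Man2b1*, *Ctsz*, *Arsa* and *Grn*. It is a rank of means whose share over all genes was not counted, and B6 cannot be told apart from its library set. In females B6, WSB and CAST lay close for *Arsa*, at 34.4, 34.1 and 33.5 CPM, and for *Lipa*, at 23.4, 23.0 and 22.4 CPM. For *Ctsz* PWK and B6 lay close, at 29.1 and 28.5 CPM in females and 28.1 and 27.7 CPM in males. For *Gm2a*, the activator of ganglioside breakdown, PWK mice read 83.7 to 95.9 CPM, CAST mice 48.6 to 58.9 CPM and WSB mice 54.0 to 61.1 CPM, and the CAST minus PWK difference was -0.75 ± 0.03 (adjusted p = 3.58e-35). *Lipa*, the acid lipase gene, read 30.6 to 38.2 CPM in PWK, 19.3 to 23.4 CPM in CAST and 19.8 to 24.8 CPM in WSB, with a CAST minus PWK difference of -0.70 ± 0.04 (adjusted p = 2.95e-31) and a CAST minus WSB difference of -0.02 ± 0.04 that did not pass. The corresponding CAST minus PWK differences were -0.66 ± 0.03 for *Man2b1* (adjusted p = 4.31e-32) and -0.83 ± 0.05 for *Ctss* (adjusted p = 1.39e-26). For *Gm2a*, *Lipa*, *Man2b1* and *Ctss* PWK WT mice were separate from those of CAST and WSB, a pattern not counted over all genes. *Ctss* in PWK did not differ detectably from B6 (0.05 ± 0.05, adjusted p = 0.439). Of the 7 members, *Ctss*, *Ctsz*, *Gm2a* and *Man2b1* were also called lower in CAST than in WSB, by -0.22, -0.26, -0.10 and -0.08, and *Arsa*, *Grn* and *Lipa* were not. With the library block as a covariate the call of *Man2b1* was lost (-0.07, adjusted p = 0.0514).

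Among other members called in the response of a single strain, those lower in CAST than in PWK were *Ctsz* by -0.52 ± 0.05, *Laptm5* by -0.35 ± 0.04, *Grn* by -0.44, *Gusb* by -0.44 and *Ctsd* by -0.26 ± 0.04. *Ctsd* did not differ detectably between CAST and WSB (-0.04 ± 0.04, adjusted p = 0.351). *Hexa* was among the 7 members called in no pair of these strains. Members called in the mean response alone went both ways, with *Ctsc*, *Naglu*, *Ctsa* and *Ctsl* higher in CAST than in PWK by 0.48, 0.52, 0.12 and 0.09, *Ctsh* lower by -0.59 and *Npc2* not called (-0.09). The microglial markers did not share a common direction between these WT groups. Of 10, 2 were higher and 4 lower in CAST than in PWK, and 2 higher and 5 lower in WSB than in PWK, with *C1qa* at -0.82 and *Tyrobp* at -0.64 in CAST minus PWK, but *Cx3cr1* at 0.17. Of 5 markers of perivascular macrophages and monocytes, 4 were higher and 1 lower in CAST than in PWK, and 3 higher and 2 lower in WSB than in PWK. Their summed level ranged from 8.75 to 13.4 CPM in CAST, from 3.15 to 11.8 CPM in WSB and from 4.4 to 9.33 CPM in PWK. The part of these cells in the strain differences was not tested.

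**Figure D4:**
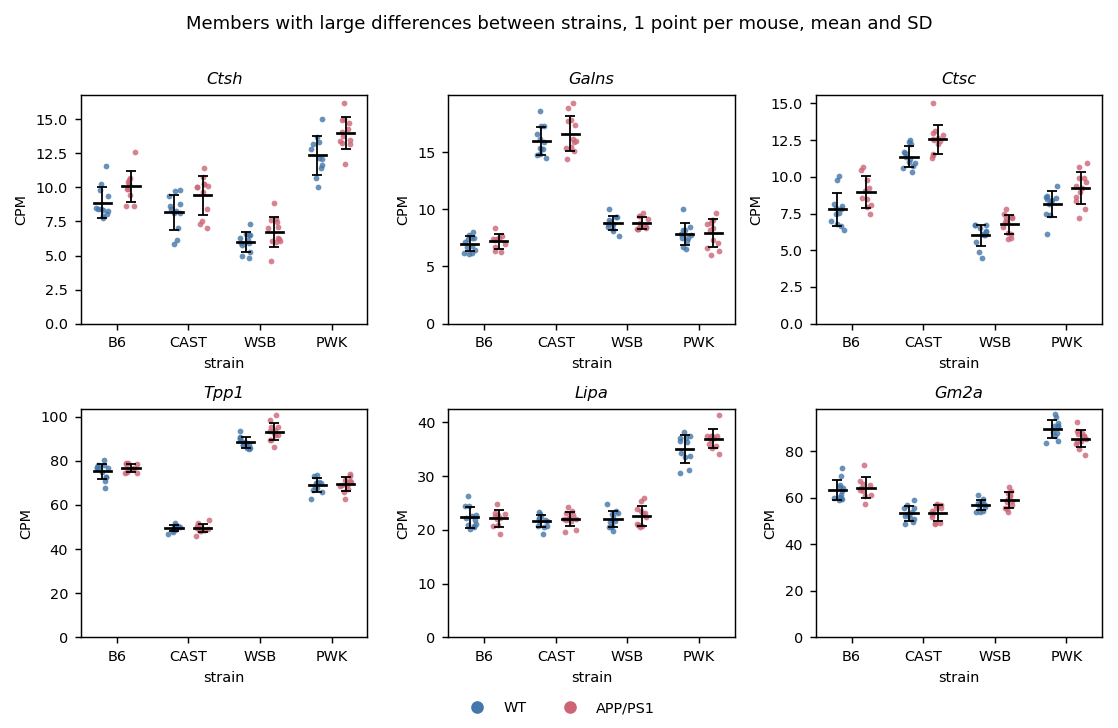
CPM of 6 members with wide strain differences in every mouse (vertical axis, from 0) by strain (horizontal axis) and genotype (color, WT left and APP/PS1 right), with mean and SD. Galns is highest in CAST, Tpp1 in WSB, and Ctsh, Lipa and Gm2a in PWK, and the WT and APP/PS1 values of Galns, Tpp1, Lipa and Gm2a overlap within each strain.

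Differences between strains and between genotypes fell on partly different members. Of the 10 members with the widest WT range, 5 were also called in the mean response (*Ctsh*, *Ctsc*, *Ctss*, *Man2b1* and *Gusb*), against 14 of all 47 members. *Galns*, *Tpp1*, *Lipa* and *Gm2a* were among the 5 that were not, with mean responses to the transgenes of 0.03 ± 0.03, 0.03 ± 0.01, 0.03 ± 0.02 and 0.00337 ± 0.0169. The other was *Aga*, at 0.12, the highest mean response of the members not called. Of the 8 members called in a response, 7 were also called among the 3 WT strains, as were 38 of all 47 members and 74.1% of all genes. Compared with B6 WT mice, 10 members were higher and 26 lower in CAST (61.4% of all genes were called in either direction), 6 higher and 24 lower in WSB (47.5%), and 11 higher and 24 lower in PWK (59.2%), a comparison in which strain and library set cannot be told apart. Without both B6 mice that stood apart the counts were 10 and 25, 6 and 23, and 11 and 23. Over all genes the directions were near balance, with 7188 higher and 7363 lower in CAST, 5505 and 5760 in WSB and 6831 and 7212 in PWK. Markers of some cell types moved the same way. All 5 oligodendrocyte markers were lower in each of the 3 strains, with medians of -0.56 in CAST, -0.60 in WSB and -0.62 in PWK. Of 3 endothelial markers, 3 were lower in CAST and WSB and 2 in PWK, and of 10 microglial markers 7, 7 and 5 were lower and 1, 2 and 2 higher. The part of these cells in the members' differences was not tested.

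Levels between genes were compared per length, as RPKM, which scale reads by library size and gene length. *Psap* was the most abundant member in WT mice of every strain, with means between 506 and 529.7 RPKM, followed by *Ctsd* between 107 and 128 RPKM. *Ids*, *Lamp1*, *Ctsb* and *Gaa* followed, in an order that varied between strains. *Ctss* ranked seventh in PWK at 39.2 ± 2.3 RPKM and lower in CAST at 22.0 ± 1.08 RPKM. At the other end, the lowest members in PWK were *Ctsc*, *Sgsh*, *Aga*, *Tfeb* and *Ctsk*, which averaged between 1.04 and 2.3 RPKM over the strains. The order there also varied, and *Ctsh* ranked 46 in WSB at 1.335 RPKM and 45 in CAST at 1.817 RPKM. The 8 members called in the response of a single strain ran from *Ctsd* down to *Gusb*, at 2.01 to 3.32 RPKM in WT mice. *Psap* lay above them and several members lay below.

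Sex was called for 1 of 47 members in WT mice, *Lipa*, where 0.456% of all genes were called. Females averaged 23.4 CPM against 21.3 CPM in males of B6, 22.4 against 20.8 CPM in CAST, 23 against 20.9 CPM in WSB and 36.4 against 34.0 CPM in PWK. The female minus male difference was 0.12 ± 0.03 (adjusted p = 0.00812), with higher means in females of 4 of 4 strains. Without B6.*APP/PS1* female 2 and B6 WT male 5, *Ctsd* was called as well (0.08, adjusted p = 0.0316). The difference of the response between sexes was called for 0 members by edgeR and by DESeq2, against 0.00422% of all genes by edgeR, and 6 members had an unadjusted p under 0.05, all of them with a larger response in females, where 7.08% of all genes had such a p. Of the 10 microglial markers, 5 had an unadjusted p under 0.05, each with a larger response in females, and the median difference of the list was 0.11. Their part in the members' values was not tested.

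Other genes of the organelle were taken from a list of 53, all of which were tested. In the single strains 4 of them were called higher and 0 lower, and values are given for 3 of these. *Cst7*, which encodes cystatin F, an inhibitor of cysteine cathepsins, averaged 2.73 CPM in B6.*APP/PS1* mice against 0.133 CPM in WT, 2.36 against 0.0655 CPM in CAST, 0.511 against 0.0534 CPM in WSB and 1.95 against 0.0558 CPM in PWK. It was called in all 4 strains, with adjusted p-values between 3.06e-24 and 2.34e-10. *Cd68*, a macrophage lysosomal glycoprotein, was higher by 0.49, 0.42, 0.48 and 0.79 in B6, CAST, WSB and PWK. The proton pump subunit *Atp6v1a* was called in PWK alone, by 0.10. Of 16 proton pump subunits, 9 sorting genes and 4 regulators related to TFEB, no others were called in a single strain.

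The transgenes of this line lie on chromosome 9 beside *Arpp21*, and mice that carry them can keep B6 sequence there after backcrossing. The 3 members on this chromosome were *Hexa* (chr9:59539540-59565109), *Ctsh* (chr9:90054152-90076089) and *Glb1* (chr9:114401076-114474898), at 52.5, 22.0 and 2.17 Mb from *Arpp21*. *Glb1*, the nearest, was lower in B6 WT than in CAST WT mice by -0.25 ± 0.04 and in PWK by -0.15 ± 0.04, and its responses there were -0.00798 ± 0.0396 and 0.05 ± 0.04. From WSB WT mice it differed by -0.04 ± 0.04, and its response there was 0.12 ± 0.04. *Ctsh* was lower in B6 than in PWK WT mice by -0.48 and higher than in WSB by 0.56, and its responses were positive in both, 0.18 and 0.16. Its difference from CAST was 0.12 ± 0.07, with a response of 0.20. *Hexa* was higher in B6 WT mice than in those of CAST by 0.31, of WSB by 0.26 and of PWK by 0.27, and its responses there were 0.07, 0.12 and 0.23. The part of B6 sequence on chromosome 9 in these responses was not tested.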

How the data were processed

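RNA was measured in the left brain hemispheres of 93 mice, with groups read from their titles. The authors trimmed reads with Trimmomatic, aligned them with STAR to GRCm38 (B6) or to genomes carrying variants of CAST, WSB or PWK, and counted them with HTSeq. The deposited files hold unnormalized counts of reads for each gene. Between 8.91% and 12.7% of reads per mouse were not uniquely aligned. The mean share was 12.0% for CAST, 11.9% for PWK, 9.89% for B6 and 9.69% for WSB.

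Reads on genes common to all mice were used. They numbered between 53969802 and 106016200 per mouse, and errors are given as the spread between mice or the standard error of the fit. Genes with 10 or more reads in 10% or more of the mice were kept, which left 23702. CPM are counts per TMM-scaled library size. Differences were fitted with edgeR 4.0.16 in R 4.3.3 as a quasi-likelihood model with a mean for each strain, genotype and sex. Contrasts were averaged over sexes and adjusted by Benjamini-Hochberg over all genes at a threshold of 0.05. A response is the log2 difference of *APP/PS1* minus WT. RPKM used exon lengths of a GRCm38 annotation. DESeq2 1.42.0 was an alternative, as were its size factors, no count filter, the library block, the replicate number, fits of a single strain or of WT mice alone, and leaving out in turn the mice of the groups of 4 and 5, or both B6 mice that stood apart. The fit was tested on simulated data. Tables and figures were made with Python 3.11.15.

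The members and gene lists were chosen with earlier results of these data known. The text gives every member called in the response of a single strain, with its lowest, median and highest values over mice, those called in the mean response alone by their fitted differences, and for WT mice the 10 called members with the widest range among CAST, WSB and PWK, with *Ctss*, *Ctsz*, *Ctsd* and *Laptm5*. Members shared up to 32.3% of their exon length with other genes (*Arsb*), and whether strand was used in counting is not given in the sources used here. Protein sequences were not used here. Values of 1 called gene of the organelle outside the members are not reported here.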

Additional observations from a re-analysis of the deposited data

Results flagged for a closer look

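Among members called in a response, 128 groups of 4 to 6 mice were examined for a mouse far from the others of its strain, genotype and sex, and 7 had one, where chance gives about 1 in 20. B6 WT male 5 was far above the other males for *Ctsd* (379 CPM against 267 to 298 CPM), *Ctss* (61.3 CPM against 46.8 to 51.4 CPM) and *Ctsz* (35.2 CPM against 25.7 to 26.9 CPM). Its summed microglial markers were 257 CPM, exceeded by 2 of the 12 B6 WT mice, whereas those of B6.*APP/PS1* female 2 were the highest of its group at 316 CPM. That female read 43.7 CPM for *Ctsz* against 32.5 to 32.8 CPM in the other females. The other distant mice were WSB WT male 4 for *Ctss* (40.4 CPM against 29.4 to 33.4 CPM), B6.*APP/PS1* male 4 for *Grn* (58.2 CPM against 48.3 to 51.8 CPM) and WSB WT female 3 for *Hexa* (34.3 CPM against 36.7 to 38.1 CPM).

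The *Ctsd* response differed between strains by a test of the difference itself, by -0.236 for WSB minus PWK and 0.248 for PWK minus B6 on the log2 scale. The PWK minus B6 call was lost without B6.*APP/PS1* female 3 or female 4.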

How the results depend on the processing

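No value reversed. Of 410 counts of called members under alternatives, 7 moved by over 1.5 times. Over the fits that left out in turn each of the 4 female B6.*APP/PS1* and 5 female PWK WT mice, the count for B6 ran from 1 to 5, with 1 (*Ctsd*) without B6.*APP/PS1* female 2, the count of responses that differ between strains from 1 to 2, and the sex count in WT mice stayed at 1. Without both B6 mice that stood apart, the B6 count was 2 (*Ctsd* and *Ctsz*), the count of responses that differ between strains 2 (*Ctsd* and *Ctss*) and the sex count 2. A fit of B6 mice alone called 0, with *Ctsd* at 0.25 (adjusted p = 0.101). Among 1392 values of single genes, 1370 kept direction and side of the threshold, 21 lost and 1 gained a call (*Grn* in WSB, adjusted p = 0.0344 without both B6 mice). Most lost calls were in B6. Elsewhere *Gusb* in WSB lost its call in a fit of that strain alone (0.19, adjusted p = 0.105) and *Man2b1* between CAST and WSB with the library block (-0.07, adjusted p = 0.0514). The cause of these changes was not tested. Replicate numbers were not taken to pair the mice in the main fit. A correlation over 0.1 was more frequent among same-numbered pairs, 15 of 45 (mean 0.0294), than among pairs with different numbers, 34 of 225 (mean -0.00556). The main fit does not account for any such likeness. With the replicate number as a block, 2 members (*Ctsd* and *Ctss*) differed in response between strains, and *Grn* in B6 was 0.16 (adjusted p = 0.0623). Every member averaged over 2 CPM in each group, and the low members *Ctsk* and *Aga* had the widest errors of the mean response (SE 0.0564 and 0.0531).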
